A study of Mus musculus with 2 samples.

Results

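The genes described here are 10 well-known transcriptional targets of p53: *Cdkn1a*, *Mdm2*, *Ccng1*, *Phlda3*, *Bax*, *Bbc3*, *Trp53inp1*, *Plk3*, *Sesn2* and *Eda2r*. Their probes were found by an exact match of the gene symbol on the array, which gave 17 of 56605 probes and all 10 genes out of 37005 names. The list was chosen by the ratio of *Cdkn1a*, already known to be higher in Cx30 KO than in WT on these arrays, so the ratio of *Cdkn1a* is a description, and the question is whether the other members differed in the same direction. The values come from 2 single-colour Agilent arrays of 60-base probes, 1 for each genotype, hybridised with striatal RNA pooled from 2 male mice. WT mice carried the strain label C57BL/6J and the mice lacking the astrocytic gap junction protein Cx30 carried the strain label Cx30-LacZ, while the study's methods describe WT as the non-mutant offspring of crosses between heterozygous mice, so differences in genetic background cannot be told apart from the loss of Cx30. Both genotypes were 8 weeks old and were given MPTP, a toxin of dopaminergic neurons, in 4 injections of 20 mg/kg at 2 h intervals, and the tissue was taken on day 1. Mice without MPTP were not analysed here, and the values therefore compare the genotypes after MPTP and do not measure a response to the toxin. With 1 array for each genotype there were no replicates, no test between genotypes was possible, and the spread between mice is unknown.

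p53 is a transcription factor that cells stabilise after DNA damage and other stress, chiefly by blocking its ubiquitination through MDM2. It binds DNA as a tetramer and switches on genes for cell cycle arrest, apoptosis, DNA repair and antioxidant defence, as well as *Mdm2* itself, which closes a negative feedback loop. In neurons, which do not divide, p53 is best known for apoptosis through BAX and PUMA, the product of *Bbc3*, and *Cdkn1a* is also induced by signals that do not use p53.

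The signals are processed intensities of the scanner software in arbitrary units, and the error after ± is the software's own estimate for the spot, which does not cover differences between mice. A probe was detected when it was well above background. For the log2 ratio, Cx30 KO minus WT, each array was first divided by its own 75th percentile (401 in WT, 382 in Cx30 KO), and each gene was represented by its brightest detected probe. The Z-score sets the log2 ratio of a probe against the mean and SD of the 1000 probes nearest in signal. A gene met the criteria as higher with a Z-score of at least 2.0 and a ratio of at least 1.5, and as lower with a Z-score of at most −2.0 and a ratio of at most 0.66. Among all 22012 detected genes the median log2 ratio was 0.03, and 2.37% met the criteria as higher and 3.39% as lower in Cx30 KO. As a yardstick, log2 ratios varied with an SD of 0.256 between probes that share a gene (7147 genes).

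The targeted gene went with the labels: the brightest probe of *Gjb6*, which encodes Cx30, read 1788 ± 179 in WT against 111 ± 11.6 in Cx30 KO, a 15.4-fold lower level. All 9 markers of striatal neurons were detected on both arrays, with a median log2 ratio of −0.16 and none meeting the criteria. Markers of other cells differed between the arrays. All 6 cortical neuron markers were higher in Cx30 KO and 5 of them met the criteria, with only 2 detected in WT and a summed level of 43.5% of the 75th percentile in WT and 364% in Cx30 KO. By their brightest probes all 7 oligodendrocyte markers were lower in Cx30 KO, 5 of them meeting the criteria, and they summed to 39160% in WT against 24444% in Cx30 KO. Another detected probe gave a log2 ratio of 0.12 for *Mbp*, 0.24 for *Mag* and 0.19 for *Cnp*. The other oligodendrocyte markers had no detected probe above 0. Of 8 microglial markers 7 were lower, 4 of them meeting the criteria, with a median log2 ratio of −0.52. Their sums were 22744% in WT against 21979% in Cx30 KO. Most of both sums came from *Itgam*, the only higher marker, at 14966% in WT and 16353% in Cx30 KO. Of 7 astrocyte markers 4 were higher and 3 lower with a median log2 ratio of 0.01, 2 of them met the criteria as lower, and the sums were 8763% and 7525%. Of 7 endothelial markers 5 were lower and 2 higher, and 1 met the criteria as lower, with sums of 4623% and 4099%. Of 5 choroid plexus markers 4 were detected, 3 lower and 1 higher, and 1 met the criteria as lower, with sums of 388% and 338%. The higher marker, *Kcne2*, was detected in Cx30 KO alone, at least 1.22-fold higher there. Fewer cells of a type and less RNA per cell cannot be told apart in such bulk samples, and the part of these shifts in the values below was not tested.

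Across the 9 detected members, 2 met the criteria as higher in Cx30 KO, *Cdkn1a* and *Bbc3*, and none (0) as lower. This is 22.2% of the detected members higher, beside 2.37% of all detected genes higher and 3.39% lower. The 22.2% includes the gene for which the list was made, and without *Cdkn1a* it is 1 of 8. All 9 were detected on both arrays, and of the 20312 genes detected on both arrays 328 met the criteria as higher. With the ratio limits alone the counts of members were the same, beside 7.22% of all detected genes higher and 6.21% lower. The median log2 ratio of the 9 was −0.09, with 6 genes lower and 3 higher. Without *Cdkn1a* and *Bbc3*, the other 7 had log2 ratios between −0.34 and 0.23 with a median of −0.09, and all 7 had Z-scores between −2 and 2. The higher level of *Cdkn1a* was thus shared by *Bbc3* and by no other detected member under these criteria. *Eda2r* was not detected on either array.

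**Figure D1:**
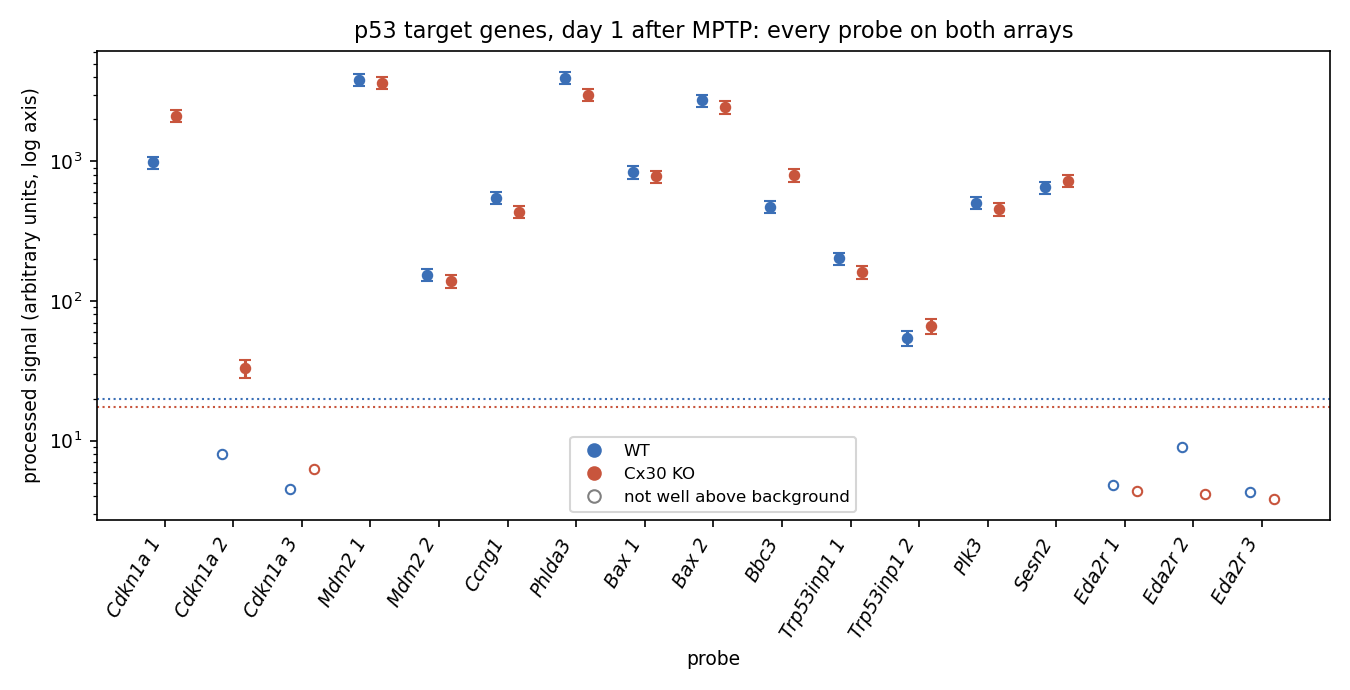
Processed signal of every probe of the 10 p53 target genes (log axis, arbitrary units) in WT and Cx30 KO, 1 array each; bars are the software's error of the spot, hollow points are not well above background, and the dotted lines are the lowest signals well above background, 19.8 in WT against 17.4 in Cx30 KO. *Cdkn1a* 1 and *Bbc3* are the probes with clearly separate bars and a higher Cx30 KO point among those detected on both arrays, and all 3 *Eda2r* probes lie below the lines.

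*Cdkn1a* encodes p21, the cyclin-dependent kinase inhibitor through which p53 halts the cell cycle. Its brightest probe, at chr17:29237377-29237436 on the plus strand of mm9 and assigned to NM_007669, read 979 ± 98.0 in WT against 2108 ± 211 in Cx30 KO. The log2 ratio was 1.18 ± 0.20, a ratio of 2.26 with a Z-score of 4.26, and 2.43% of all detected genes had a higher log2 ratio. The other 2 probes of the gene were much dimmer. The probe at chr17:29235299-29235358, which starts 2078 bases upstream of the bright probe and is assigned to ENSMUST00000122348, was at 7.97 ± 4.02 in WT, not well above background, and at 33.0 ± 4.78 in Cx30 KO. That probe was therefore at least 1.75-fold higher in Cx30 KO, the same direction as the bright probe. The probe at chr17:29227986-29228045, assigned to NM_001111099 and starting 9391 bases upstream of the bright probe, did not exceed background clearly on either array, with 4.49 in WT against 6.27 in Cx30 KO. The *Cdkn1a* values thus rest on the downstream probe, with a dim probe on the same side. The first 30 bases of the 3 probes are shown to identify the stretches of the gene that were read.
*Cdkn1a* bright probe: ctaagggagctcacaggacactgagcaatg
*Cdkn1a* dim probe: tggggtagtttccatagtgacccgggtcct
*Cdkn1a* undetected probe: aatggagacagagaccccagataattaagg

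Since the members are direct p53 targets by background knowledge, their promoter windows in RefSeq (GRCm38.p6, 250 bases before to 50 after the start) were searched. The motif was the 10-base consensus half-site of p53 with no mismatch. The consensus reads the same on both strands, and no other motif was searched. A half-site was found in 2745 of 32851 windows, or 8.36%. A full site, a pair of half-sites with at most 13 bases between them and at most 1 mismatch in 20, was found in 359, or 1.09%. Of the 12 windows of 9 members, 4 held at least 1 exact half-site and 3 of these a full site. These were *Cdkn1a*, *Bax* and *Ccng1* with a full site and *Mdm2* with a half-site alone. The sequences show the members with a match beside *Bbc3*, the other gene that met the criteria, and capitals mark the exact 10-base half-sites. The *Cdkn1a* window is chr17:29090729-29091028 on the plus strand, with half-sites starting 73 and 51 bases before the start and 12 bases apart. A further full site without a spacer and with 1 mismatch also starts 51 bases before the start. This window is the first of 2 for *Cdkn1a*, and the other, chr17:29093519-29093818, held 0 half-sites and 0 full sites.
*Cdkn1a* promoter: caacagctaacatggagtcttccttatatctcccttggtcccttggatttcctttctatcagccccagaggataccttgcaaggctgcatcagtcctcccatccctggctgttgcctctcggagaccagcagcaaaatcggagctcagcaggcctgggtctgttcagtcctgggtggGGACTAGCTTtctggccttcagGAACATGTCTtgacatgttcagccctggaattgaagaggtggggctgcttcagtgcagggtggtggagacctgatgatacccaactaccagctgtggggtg
*Bax* promoter: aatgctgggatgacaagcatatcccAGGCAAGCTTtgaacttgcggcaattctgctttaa
*Ccng1* promoter: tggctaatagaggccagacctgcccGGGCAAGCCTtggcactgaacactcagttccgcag
*Mdm2* promoter: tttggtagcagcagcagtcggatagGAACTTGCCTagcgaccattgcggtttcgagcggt
*Bbc3* promoter: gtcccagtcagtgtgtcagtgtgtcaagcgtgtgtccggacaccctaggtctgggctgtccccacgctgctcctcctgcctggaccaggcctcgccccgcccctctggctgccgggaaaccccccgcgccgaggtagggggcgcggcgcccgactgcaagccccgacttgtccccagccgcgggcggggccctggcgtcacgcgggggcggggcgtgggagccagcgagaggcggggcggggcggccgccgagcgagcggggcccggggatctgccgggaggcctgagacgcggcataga
The *Bax* stretch is chr7:45467065-45467124, that of *Ccng1* chr11:40755437-40755496 and that of *Mdm2* chr10:117710910-117710969, all of 60 bases on the minus strand. Their half-sites start 201, 185 and 186 bases before the start. The *Bbc3* window, chr7:16309333-16309632 on the plus strand, is the first of 3 for this gene, and these letters were found in none of them. The windows with a half-site thus belong to 1 gene that met the criteria and to 3 that did not. A match in these windows is a description of letters and not of binding.

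*Ccng1* encodes cyclin G1, which recruits a phosphatase that acts on MDM2. Its probe at chr11:40562427-40562486 (mm9, minus strand, NM_009831) read 545 ± 54.7 in WT against 434 ± 43.6 in Cx30 KO, equal to a ratio of 0.837, with a log2 ratio of −0.26 and a Z-score of −0.84. *Plk3* encodes a polo-like kinase of the stress response. Its probe at chr4:116801317-116801376 (minus strand, NM_013807) read 506 ± 50.8 in WT against 454 ± 45.5 in Cx30 KO, and its log2 ratio was −0.09. Both cell cycle genes were on the lower side in Cx30 KO, the side opposite to *Cdkn1a*, and neither met the criteria. The size of the *Ccng1* log2 ratio is close to the SD between probes of a gene, and that of *Plk3* is smaller.

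*Mdm2* encodes the ubiquitin ligase that degrades p53 and is itself among the most used readouts of p53 activity. Its bright probe, at chr10:117126010-117126069 (mm9, minus strand, NM_001288586), read 3832 ± 383 in WT against 3637 ± 364 in Cx30 KO, a ratio of 0.997 after scaling with a Z-score of −0.03. Its other probe, which spans chr10:117139375-117142253, read 154 ± 15.9 in WT against 139 ± 14.3 in Cx30 KO, with a ratio of 0.949. Both *Mdm2* probes were thus nearly level between the genotypes, with the difference of either well within the SD between probes of a gene.

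Of the genes for apoptosis, *Bbc3* was higher in Cx30 KO. It encodes PUMA, a BH3-only protein that releases BAX and BAK. Its single probe at chr7:16903403-16903462 (mm9, plus strand, NM_133234) read 470 ± 47.3 in WT against 793 ± 79.4 in Cx30 KO. The log2 ratio was 0.82 ± 0.20, a ratio of 1.77 with a Z-score of 2.67, and 4.20% of all detected genes had a higher log2 ratio. The first 30 bases of the probe are shown because the value rests on this probe alone.
*Bbc3* probe: tgggagcggggagggacggcccagcctgta

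*Bax* encodes the protein that permeabilises the outer mitochondrial membrane. Its brightest probe, at chr7:52717122-52717181 (mm9, minus strand, NM_007527), read 2726 ± 273 in WT against 2435 ± 244 in Cx30 KO, and its log2 ratio was −0.09. The other probe, which spans chr7:52721469-52721624, read 835 ± 83.6 and 779 ± 77.9, with a log2 ratio of −0.03. The 2 *Bax* probes gave the same picture of nearly equal levels, and the gene thus did not follow *Bbc3*.

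*Phlda3*, whose product represses AKT signalling at the membrane, had the lowest log2 ratio of the members. Its probe at chr1:137665642-137665701 (mm9, plus strand, NM_013750) read 3946 ± 395 in WT against 2974 ± 297 in Cx30 KO, equal to a ratio of 0.792, with a log2 ratio of −0.34 and a Z-score of −1.25. *Trp53inp1* encodes a stress protein that promotes p53 activity and autophagy. Its brighter probe, at chr4:11101174-11101233 (plus strand, NM_021897), read 201 ± 20.8 in WT against 161 ± 16.8 in Cx30 KO, and its log2 ratio was −0.25. Its other probe, at chr4:11092530-11092589, read 54.2 ± 6.91 in WT against 66.1 ± 7.62 in Cx30 KO, and its log2 ratio was 0.36. The 2 *Trp53inp1* probes thus pointed in opposite directions, and the gene has no settled direction in these data. Their first 30 bases are shown to tell the probes apart.
*Trp53inp1* brighter probe: gtgtgtttatgggcacaatgttttctctca
*Trp53inp1* dimmer probe: aactcctgtcctggtctcagtgaggcgagt

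*Sesn2*, which encodes a sestrin that restrains mTORC1 and supports antioxidant defence, was the remaining member with a positive log2 ratio. Its probe at chr4:132048858-132048917 (mm9, minus strand, NM_144907) read 648 ± 65.0 in WT against 723 ± 72.4 in Cx30 KO, a log2 ratio of 0.23 and a ratio of 1.17, which did not meet the criteria. *Eda2r* encodes a receptor of the tumour necrosis factor family that binds ectodysplasin A2. Its 3 probes on the X chromosome read 4.83, 9.03 and 4.32 in WT and 4.34, 4.14 and 3.83 in Cx30 KO. None was well above background on either array, so no ratio is given.

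Ordered by log2 ratio, the detected members ran from *Cdkn1a* through *Bbc3*, *Sesn2*, *Mdm2*, *Plk3*, *Bax*, *Trp53inp1* and *Ccng1* to *Phlda3*. The SD between probes of a gene gives an SD of 0.362 for a difference between the log2 ratios of 2 genes. Among neighbours in this order, the gap of 0.596 between *Bbc3* and *Sesn2* was larger than that SD, and the other gaps were smaller. The gap between *Cdkn1a* and *Bbc3* was 0.354. Steps among the other 7 were no larger than 0.233, and 5 of the 9 had a log2 ratio smaller in size than the SD of 0.256. The list was chosen by the ratio of *Cdkn1a*, so its place at the top is not a result. The SD between probes does not cover differences between mice, and the gaps were not tested.

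**Figure D2:**
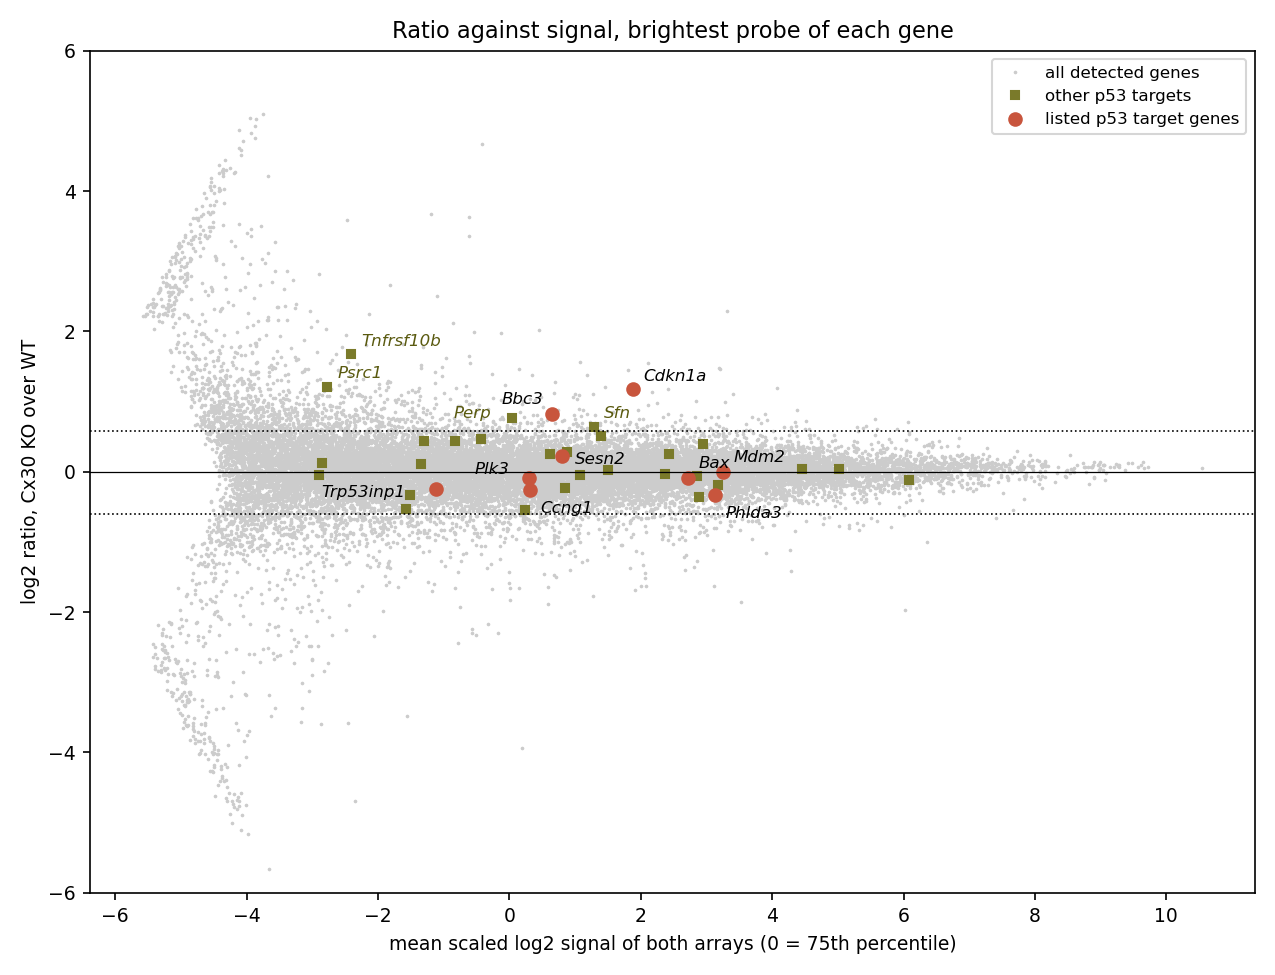
Log2 ratio of Cx30 KO over WT against mean scaled log2 signal for the 22012 detected genes (grey), the 9 detected members (circles) and 28 other p53 targets (squares), each by its brightest probe; dotted lines mark the ratio limits of 1.5 and 0.66. *Cdkn1a* at 1.18 and *Bbc3* at 0.82 lie above the upper limit, and the other 7 members lie between the limits.

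The genes upstream of the members showed few differences. Of a list of 16 genes for p53, its relatives and regulators, 14 were detected, with a median log2 ratio of 0.03. Among the 14, 1 met the criteria as lower and none (0) as higher, beside 3.39% and 2.37% of all detected genes. *Trp53*, which encodes p53, read 202 ± 20.8 in WT against 198 ± 20.3 in Cx30 KO, a log2 ratio of 0.04, and *Mdm4*, whose product inhibits p53 together with MDM2, had a log2 ratio of 0.09. The mRNA of p53 was thus level between the arrays, a value that does not measure p53 protein, which is mainly controlled by degradation. The gene that met the criteria was *Atm*, the kinase that signals DNA double-strand breaks to p53. It read 71.5 ± 8.28 in WT against 26.3 ± 4.51 in Cx30 KO, a log2 ratio of −1.37 with a Z-score of −2.46, and another of its probes gave −1.26. Under the 12 other ways of processing described below, the log2 ratio of *Atm* ranged from −1.43 to −0.63, and the gene met the criteria in all 12. *Chek2* and *Cdkn2a* were not detected.

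Of 29 other p53 targets, 28 were detected and 4 of them, 14.3%, met the criteria as higher in Cx30 KO beside 2.37% of all detected genes. None (0) was called lower, beside 3.39% of all detected genes. The list had 17 genes higher and 11 lower, and its median log2 ratio was 0.08. *Tnfrsf10b*, a death receptor for TRAIL, read 42.1 ± 6.42 in WT against 128 ± 13.5 in Cx30 KO, a log2 ratio of 1.68 with a Z-score of 3.35. The value comes from 1 of its 3 probes, at chr14:70184141-70184200, and the others were not detected. The gene lies on the same chromosome as *Gjb6*, whose brightest probe is at chr14:57742226-57742285, and a part of this location in the value was not tested. *Psrc1*, which encodes a spindle protein, read 38.6 ± 6.23 and 85.2 ± 9.60, a log2 ratio of 1.21. *Perp*, which encodes a desmosomal membrane protein linked to apoptosis, read 315 ± 31.8 and 510 ± 51.1, a log2 ratio of 0.76. *Sfn*, which encodes the G2 checkpoint protein 14-3-3 sigma, read 781 ± 78.3 and 1162 ± 116, a log2 ratio of 0.64. The 4 genes encode a receptor, a spindle, an adhesion and a checkpoint protein. WT signals of *Tnfrsf10b* and *Psrc1* were not far above the lowest WT signal well above background, 19.8. Under the 12 other ways of processing described below, the log2 ratio of *Tnfrsf10b* ranged from 0.84 to 1.68. That of *Psrc1* ranged from 0.53 to 1.21, that of *Perp* from 0.66 to 0.77 and that of *Sfn* from 0.57 to 0.65. *Tnfrsf10b* met the criteria in all 12, *Psrc1* and *Perp* in 10 and *Sfn* in 9.

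The targets that did not meet the criteria lay on both sides of 0, and those named here were picked after their values were seen. *Fas*, another death receptor, had a log2 ratio of −0.54, *Gadd45a*, a stress sensor that slows the cell cycle, −0.53, and *Rps27l*, a ribosomal protein that affects MDM2 stability, −0.36. The brightest probe named *Fas* is placed at chr4:40555124-40555183, while another detected probe of the gene, at chr19:34402164-34402223, also gave −0.54. *Pmaip1*, which encodes the BH3-only protein NOXA, had 0.12, *Zmat3*, an RNA-binding protein gene, −0.04, *Aen*, an apoptosis-enhancing nuclease gene, −0.18, *Btg2*, an antiproliferative gene, 0.43, and *Ddb2*, a DNA repair gene, 0.46. With the 10 members and these 29 genes together, 37 of 39 targets were detected, and 20 were higher and 17 lower with a median of 0.04. Among all 22012 detected genes, 12010 were higher and 10002 lower. Of the 37, 6 met the criteria as higher and none (0) as lower, beside 2.37% and 3.39% of all detected genes. The 6 include *Cdkn1a*, the gene for which the member list was made.

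**Figure D3:**
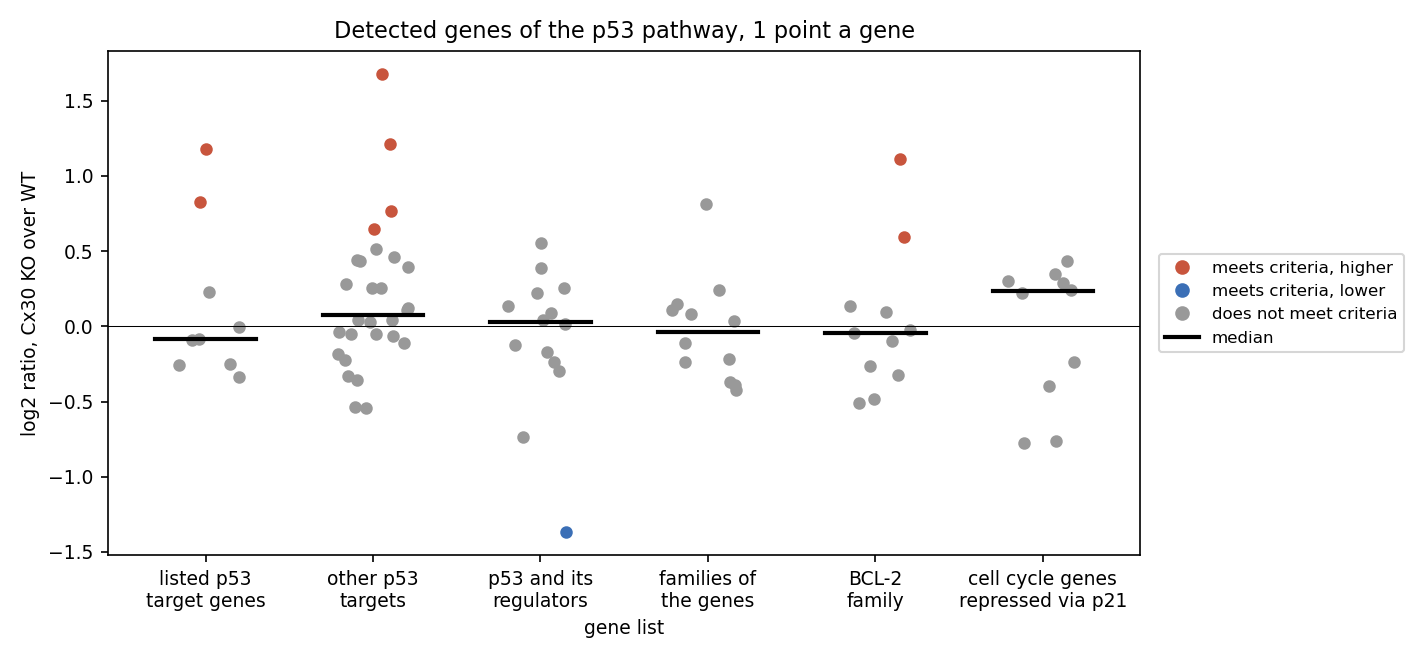
Log2 ratio of Cx30 KO over WT for each detected gene of the p53 target list and 5 related lists, 1 point a gene, with the median as a bar and genes meeting the criteria in colour. All 6 medians lie between −0.09 and 0.23, and the genes that met the criteria as higher are 2 members, 4 other targets and 2 BCL-2 family genes.

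The partners of PUMA and BAX were read from a list of 13 BCL-2 family genes, of which 11 were detected, 7 lower and 4 higher, and whose median log2 ratio was −0.04. Of the 11, 2 met the criteria as higher, beside 2.37% of all detected genes. *Bok*, a relative of *Bax*, read 660 ± 66.1 in WT against 1360 ± 136 in Cx30 KO, a log2 ratio of 1.12 with a Z-score of 3.94. *Hrk*, a BH3-only gene of neurons, read 3968 ± 397 and 5709 ± 571, a log2 ratio of 0.60, and its other probe gave 0.97. *Bak1*, the other pore-forming partner of PUMA, had −0.10. Of the antiapoptotic genes, *Bcl2* had −0.51, *Mcl1* −0.33, *Bcl2l1* −0.04 and *Bcl2l2* 0.09. Of the other BH3-only genes, *Bmf* had −0.48, *Bcl2l11* −0.26, *Bid* −0.03 and *Bad* 0.14. Dimmer probes of some of these genes lay on the other side of 0, with log2 ratios of 0.39 for *Bmf*, 0.61 for a *Bcl2l11* probe detected in Cx30 KO alone, and 0.07 to 0.18 for 4 probes of *Bcl2l1*. A second *Bid* probe was detected in WT alone, at least 2.36-fold lower in Cx30 KO. No gene of the BCL-2 family (0) met the criteria as lower, beside 3.39% of all detected genes.

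Relatives of the members had no call in either direction, beside 2.37% of all detected genes higher and 3.39% lower. At those shares a list this short can well hold no call. Of 14 genes 12 were detected, 6 higher and 6 lower, with a median of −0.04. *Cdkn1b* and *Cdkn1c*, the other inhibitors of the p21 family, had log2 ratios of −0.22 and −0.24, so the higher level of *Cdkn1a* was not shared by these paralogs. The inhibitors of the other family, *Cdkn2b*, *Cdkn2c* and *Cdkn2d*, had −0.37, −0.11 and 0.15. The relative farthest from 0 was *Plk4*, a kinase of centriole duplication, at 55.8 ± 7.08 in WT against 93.4 ± 10.1 in Cx30 KO, a log2 ratio of 0.81 and a ratio of 1.76 with a Z-score of 1.56. It passed the ratio limit but not the Z-score limit, and a dimmer probe detected on both arrays gave 0.50. *Trp53inp2*, at 11399 in WT against 8092 in Cx30 KO, had −0.42, *Phlda1* −0.39, *Eda* 0.24, *Sesn3* 0.11, *Plk5* 0.08 and *Ccng2* 0.04. *Sesn1*, counted among the other targets, had 0.39 and *Plk2* 0.25. Of 12 cell cycle genes that p21 represses, 10 were detected, 4 lower and 6 higher, with a median of 0.23. Among the 6, *Cdc25c* was detected in Cx30 KO alone, at least 1.30-fold higher there. None (0) of the 10 met the criteria, beside the same shares of all detected genes. Of the cell cycle genes, also picked after their values were seen, *Mki67*, the proliferation marker, had 0.29, *Ccnb2*, a mitotic cyclin, −0.77, and *Top2a*, a topoisomerase of dividing cells, −0.77.

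The values of the members held their direction under 12 other ways of processing, with 1 exception. Those that changed only the Z-score or the ratio limits could not alter a log2 ratio and bear on the criteria alone. The filters on dim probes and the outlier spots left the ratios of the detected members the same. The authors' value table gave nearly the same ratios as quantile normalisation. The log2 ratio of *Cdkn1a* ranged from 1.11 to 1.65 and met the criteria in 11 of them, and that of *Bbc3* ranged from 0.72 to 0.82 and met them in 10. Both fell short with a Z-score over the whole array, at Z-scores of 1.93 and 1.34, and *Bbc3* also fell short of a ratio of 2, a limit that left *Cdkn1a* as the only member meeting the criteria, beside 1.54% of all detected genes higher and 1.94% lower. The exception was *Trp53inp1*, from −0.29 to 0.05, where the mean of its 2 probes was above 0. *Phlda3* ranged from −0.38 to −0.32, *Ccng1* from −0.30 to −0.23 and *Sesn2* from 0.18 to 0.23.

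**Figure D4:**
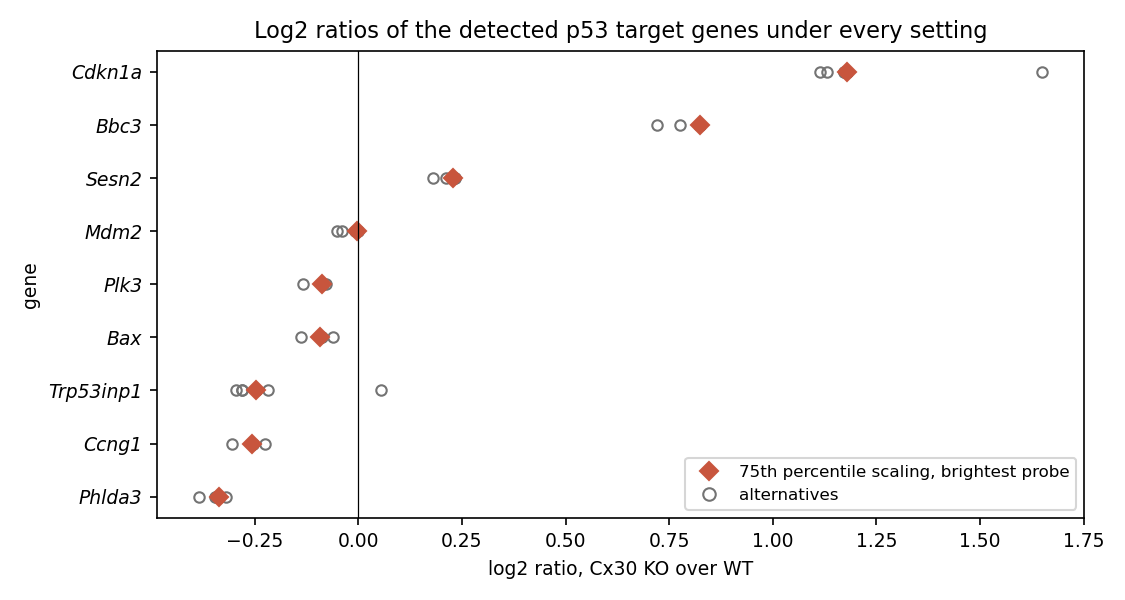
Log2 ratio of Cx30 KO over WT of the 9 detected members under the setting used in the text (diamonds) and the 12 alternatives (open circles). *Cdkn1a* and *Bbc3* stay above the other members under every setting, and *Trp53inp1* crosses 0 under 1 alternative. Alternatives that change only the Z-score or the ratio limits have the same log2 ratio as the diamond.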

How the data were processed

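Striatal RNA of WT and Cx30 KO mice after MPTP was compared on 2 Agilent arrays. The linear intensities deposited by the authors are processed signals, background-subtracted and detrended within each array but not normalised between arrays. The file headers name Feature Extraction 10.7.1.1, the submitters' processing notes 9.5.1.1. The authors' value table, also linear intensities, has the same quantiles on both arrays and served as an alternative; its normalisation is not given in the sources used here.

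Control and outlier spots were removed, log2 signals of repeated spots were averaged, and each array was scaled to its 75th percentile. Well above background means that the software marked 50% or more of the spots of a probe in this way, as for 32019 probes in WT and 32961 in Cx30 KO. A fold given as "at least" is a bound against the lowest such signal on the other array. No member probe (0) was saturated. Repeated spots of 298 probes had a median SD of 2.77% (WT) or 2.84% (Cx30 KO), and precision is limited by there being 2 arrays. Older names of 2038 probes were updated through a RefSeq table; members were matched by their symbol as written. The Z-score and ratio limits are the study's, whose methods name no reference set for the Z-score. The steps were tested on simulated data.

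The members and all lists were chosen with earlier results of these data known. Named genes are the members, *Trp53* and *Mdm4*, and genes of the pathway lists that met the criteria. Relatives of the members including the BCL-2 family were also named and, as the check of the labels, *Gjb6*. Further targets, cell cycle genes and cell type markers were picked after their values were seen. Alternatives were quantile normalisation, scaling to the median, normexp with an offset of 50, the value table, no filter or a stricter filter on dim probes, the mean of a gene's probes, Z-scores over all or the nearest 200 probes, ratio limits of 2 and 0.5 or without Z-score, and outlier spots kept. Probe positions are those of mm9 as the files give them, without an annotation of exons or UTRs of that build, and promoters are from RefSeq GRCm38.p6. Python 3.11.15, pandas 2.3.3, R 4.3.3 and limma 3.58.1 were used.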

Additional observations from a re-analysis of the deposited data

How the results depend on the processing

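No list or gene reversed a call under the 12 alternatives. With the Z-score over all probes, 0 of the p53 target genes met the criteria as higher, 1 of the other p53 targets and 0 of the BCL-2 family, while all genes gave 502 higher and 455 lower, so that 52.5% of the calls were higher against 41.2% with the 1000 nearest probes. With ratio limits of 2 and 0.5 these counts were 1, 2 and 1, and all genes gave 340 higher and 428 lower. With normexp 2 of the other p53 targets met the criteria, and with scaling to the median 1 of the BCL-2 family. With ratio limits alone 2 regulators and 2 cell cycle genes were lower, 1 relative of the members was higher, and all genes gave 1589 higher and 1367 lower. Without a filter on dim probes 2 regulators were lower, and with genes detected on both arrays 328 of all genes were higher against 522. The cause of these differences was not tested. The median log2 ratio of the members ranged from −0.13 to −0.04, that of p53 and its regulators from −0.05 to 0.10, and those of the BCL-2 family and of the relatives also crossed 0. The median of the cell cycle genes ranged from 0.06 to 0.23, with the value in the text at the top, and that of the other p53 targets from 0.03 to 0.11. No paired analysis was possible because each genotype has 1 array, and no replicate could be left out. A dim signal limits *Eda2r* and the upstream *Cdkn1a* probes.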
